A study of Danio rerio with 17 samples.

Results

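The genes described here are 5 enzymes and enzyme-like proteins of folate, thymidylate, vitamin B12 and sulfur amino acid metabolism, out of 15648 genes measured in zebrafish midbrain. They were taken by symbol, in any case, as TYMS (ENSDARG00000042894), SHMT1 (ENSDARG00000052816), MMAB (ENSDARG00000068344), AHCYL1 (ENSDARG00000056331) and CSAD (ENSDARG00000026348). Each symbol matched 1 Ensembl gene. Gene expression was measured with single-colour arrays (Cy3 label) in the midbrains of 17 male zebrafish, 1 year old and sexually mature, from the populations Pargana and Transgenic Mosaic 1. The labels do not say which transgene Transgenic Mosaic 1 carries or in which cells it acts. For 10 weeks all fish were fed selenium as selenomethionine, and the deficient, control and supplemented diets held 0.46, 1.7 and 3.1 ppm of it. There were 2 Pargana control fish and 3 fish in each of the other 5 groups. Every array came from its own fish, and differences between individuals therefore enter the spread of a group together with technical variation. All values are log2 expression values, on which 1 unit is a doubling, and the arrays had medians between 9.62 and 9.73.

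Of these proteins SHMT1 and TYMS act in one-carbon metabolism, and the others have roles of their own. SHMT1, a cytosolic serine hydroxymethyltransferase, moves a carbon from serine onto tetrahydrofolate. TYMS, thymidylate synthase, uses the resulting methylene group to turn dUMP into dTMP for DNA, and releases dihydrofolate, which dihydrofolate reductase (dhfr) returns to the cycle. Vitamin B12 serves methionine synthase, which links folate to the methionine cycle, and methylmalonyl-CoA mutase (MMUT), whose cofactor adenosylcobalamin is made by the adenosyltransferase MMAB. AHCYL1 resembles S-adenosylhomocysteine hydrolase but is known in mammals as a protein that binds inositol trisphosphate receptors. CSAD decarboxylates cysteine sulfinic acid on the way to taurine, an abundant amino acid of brain. Selenomethionine enters cells as methionine does, and its selenium is released through the same transsulfuration steps.

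The 5 genes were chosen by the values reported here, as genes higher in Transgenic Mosaic 1 than in Pargana with a limma adjusted p under 0.05 averaged over the diets. Of all genes 13.3% passed that threshold, 6.4% as higher and 6.95% as lower in Transgenic Mosaic 1. CSAD, with a limma adjusted p of 0.0344, was the member nearest to the threshold. Just outside it on the same side were MTRR (0.0651), tcnba (0.0706) and a feature named SLC25A32 (0.0638), all pathway genes. Another feature named SLC25A32 differed by -0.19 (limma adjusted p = 0.341). Because of this choice the population differences of the 5 members are described without a test. The tests on these genes are those between diets, the interaction of population and diet, and their covariation among fish of 1 population.

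The identity of the tissue was checked on marker genes. All 14 measured neuron marker features lay above the array median on all 17 arrays. None of 15 features of dividing cells did so, and their list score (the mean over genes of the value less the gene's mean over all fish) ran from -0.31 to 0.32 in Pargana and from -0.17 to 0.31 in Transgenic Mosaic 1. Scores of fast skeletal muscle reached 1.6 in Pargana supplemented fish 1 and 1.15 in supplemented fish 3, against at most 0.03 in Transgenic Mosaic 1. Pituitary scores reached 2.44 in Pargana control fish 2 and 2.34 in supplemented fish 3, against at most -0.27 in Transgenic Mosaic 1. Eye and pineal scores were high in both populations, at 1.47 in Pargana supplemented fish 1 and 1.28 in Transgenic Mosaic 1 deficient fish 2. The part of these markers in the population and diet differences was not tested. The 2 Pargana control fish correlated at 0.974 across genes, below the 0.98 to 0.991 of the other pairs within a group. For Pargana deficient fish 3 the code in the label carries another letter than for the rest of the population, and the fish was kept in Pargana, its labelled strain.

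**Figure D1:**
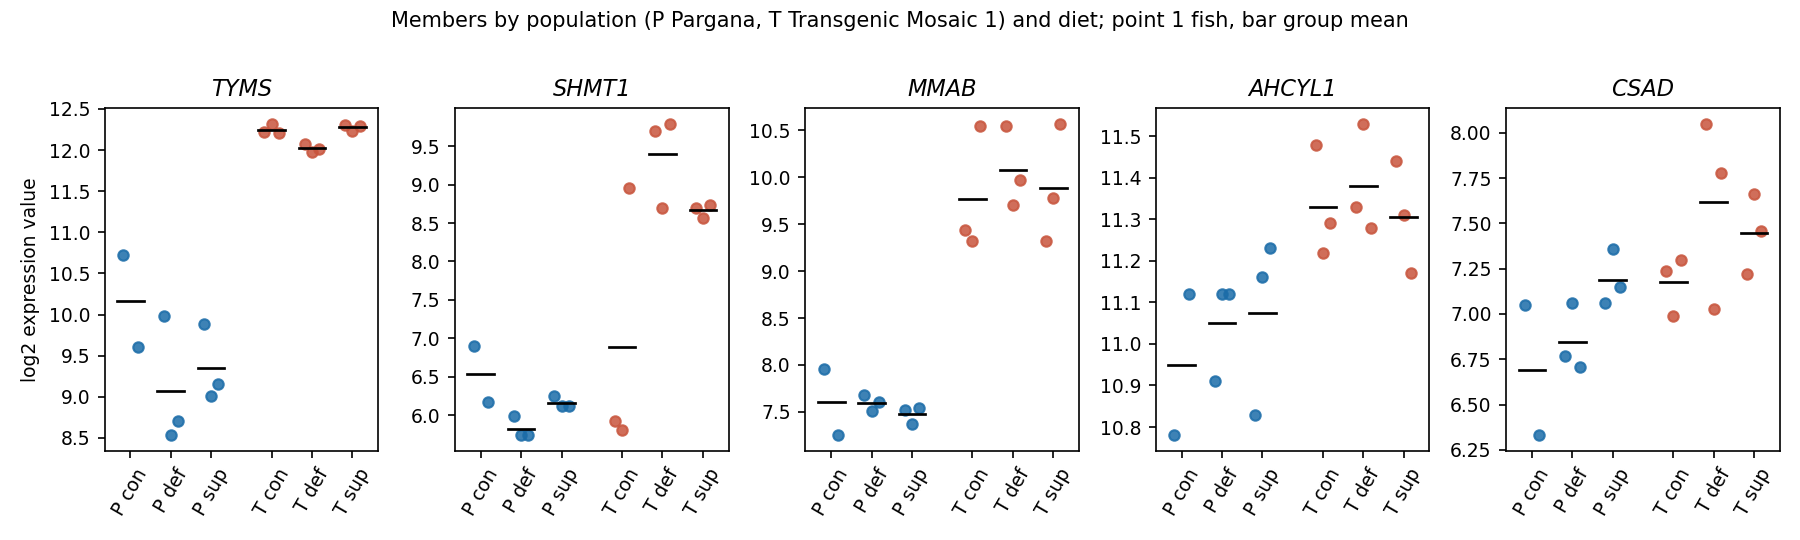
Log2 expression value (vertical axis, a separate scale in each panel) of the 5 genes in each of the 17 fish, by population and diet (con, control; def, deficient; sup, supplemented). Points are fish and bars are group means. TYMS and MMAB do not overlap between the populations, as was so in this direction for 0.984% of all genes. SHMT1 splits the Transgenic Mosaic 1 control group into 2 fish near 5.9 and 1 at 8.95.

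TYMS was the member with the largest population difference averaged over the diets, while SHMT1 differed more on the deficient and MMAB on the control diet. Pargana fish had 10.72 and 9.61 on the control, 9.98, 8.53 and 8.71 on the deficient, and 9.88, 9.01 and 9.16 on the supplemented diet. The Pargana fish thus spread over 2.19 units, and the ranges of the 3 diets overlapped in part.

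Transgenic Mosaic 1 fish had TYMS values of 12.22, 12.32 and 12.21 on the control, 12.08, 11.98 and 12.01 on the deficient, and 12.31, 12.23 and 12.29 on the supplemented diet. These 9 fish spanned 0.34 units, and the lowest of them lay 1.26 units above the highest Pargana fish. Every Transgenic Mosaic 1 fish was above every Pargana fish for 0.984% of genes. The mean difference was 2.65 (SE 0.21), a 6.29-fold difference, and was 2.09, 2.95 and 2.93 on the control, deficient and supplemented diets.

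No diet difference of TYMS passed. Deficient Pargana fish had 9.07 ± 0.79 (SD, n = 3) against 10.16 ± 0.78 (SD, n = 2) in the controls, a difference of -1.09 (SE 0.38, limma adjusted p = 0.568, unadjusted p = 0.0132). For that comparison 0.0383% of all genes passed. Pargana deficient fish 1, at 9.98, lay between the 2 controls, and the difference was -0.54 without Pargana control fish 1 and -1.65 without control fish 2, neither of which passed. Supplemented Pargana fish differed from control by -0.82 (SE 0.38, limma adjusted p = 0.837), a comparison with 0.032% of genes passing, and by -0.26 and -1.37 without control fish 1 and 2. In Transgenic Mosaic 1 all 3 deficient fish lay below all 3 controls, by a mean of -0.23 (SE 0.34, limma adjusted p = 0.999). Deficient fish lay below all controls there for 5.36% of genes, and 0.0256% of genes passed limma. The SE is shared by all groups in the fit, while the SD of TYMS within groups was 0.04 to 0.06 in Transgenic Mosaic 1 and 0.47 to 0.79 in Pargana.

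SHMT1 separated the fish in another way. Its Pargana values were 6.90 and 6.17 on the control, 5.99, 5.74 and 5.74 on the deficient, and 6.25, 6.12 and 6.12 on the supplemented diet. All 8 values were among the lower ones of their arrays, between 14.9% and 22.9% of the way up the ranked genes, the dim end of an array, where small differences are less certain.

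Among Transgenic Mosaic 1 fish SHMT1 was at 5.92, 5.81 and 8.95 on the control, 9.69, 8.70 and 9.79 on the deficient, and 8.69, 8.56 and 8.74 on the supplemented diet. Control fish 1 and 2 were thus in the range of Pargana, while the other 7 fish held between 8.56 and 9.79, with a gap of 2.64 units in between. SHMT1 was the 1 gene of 15648 (0.00639%) for which these 2 fish lay more than 2 units below the other 7, a pattern and limit chosen after its values were seen. None of the other 4 members had these 2 fish apart, and the 2 arrays correlated with the third control array at 0.987 and 0.983 across genes.

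The order of the SHMT1 group means was 5.82 ± 0.15 (SD, n = 3) in deficient, 6.16 ± 0.07 (SD, n = 3) in supplemented and 6.53 ± 0.52 (SD, n = 2) in control Pargana fish. It went on with 6.89 ± 1.78 (SD, n = 3) in control, 8.66 ± 0.09 (SD, n = 3) in supplemented and 9.39 ± 0.60 (SD, n = 3) in deficient Transgenic Mosaic 1 fish. The control groups of the populations overlapped, and their means differed by 0.36 (SE 0.67), or by -0.67 (SE 0.31) without Transgenic Mosaic 1 control fish 3 and -0.01 without Pargana control fish 2. The population difference was 3.57 (SE 0.60) among deficient and 2.50 (SE 0.60) among supplemented fish, and 2.14 (SE 0.36) over all diets.

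With all arrays, SHMT1 did not pass between diets in Transgenic Mosaic 1. Deficient fish differed from control by 2.50 (SE 0.60), with a limma adjusted p of 0.606 and an unadjusted p of 0.001. Supplemented fish differed by 1.77 (SE 0.60), with a limma adjusted p of 0.621 and an unadjusted p of 0.011. For these comparisons 0.0256% and 0.0831% of all genes passed. Whether these comparisons passed depended on control fish 3, at 8.95. Without it, with 2 control fish left, the deficient diet differed by 3.53 (SE 0.28) at a limma adjusted p of 6.91e-05. The supplemented diet then differed by 2.80 (SE 0.28) at a limma adjusted p of 0.000784. Nothing in the labels sets control fish 3 apart. Its value lay with those of the deficient and supplemented fish, between 8.56 and 9.79. Leaving it out keeps only the controls in the range of Pargana, and removes the spread of that group from the SE. The planned result is that with all arrays, and this was the only 1 of 17 omissions that passed, picked out after the values were seen.

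**Figure D2:**
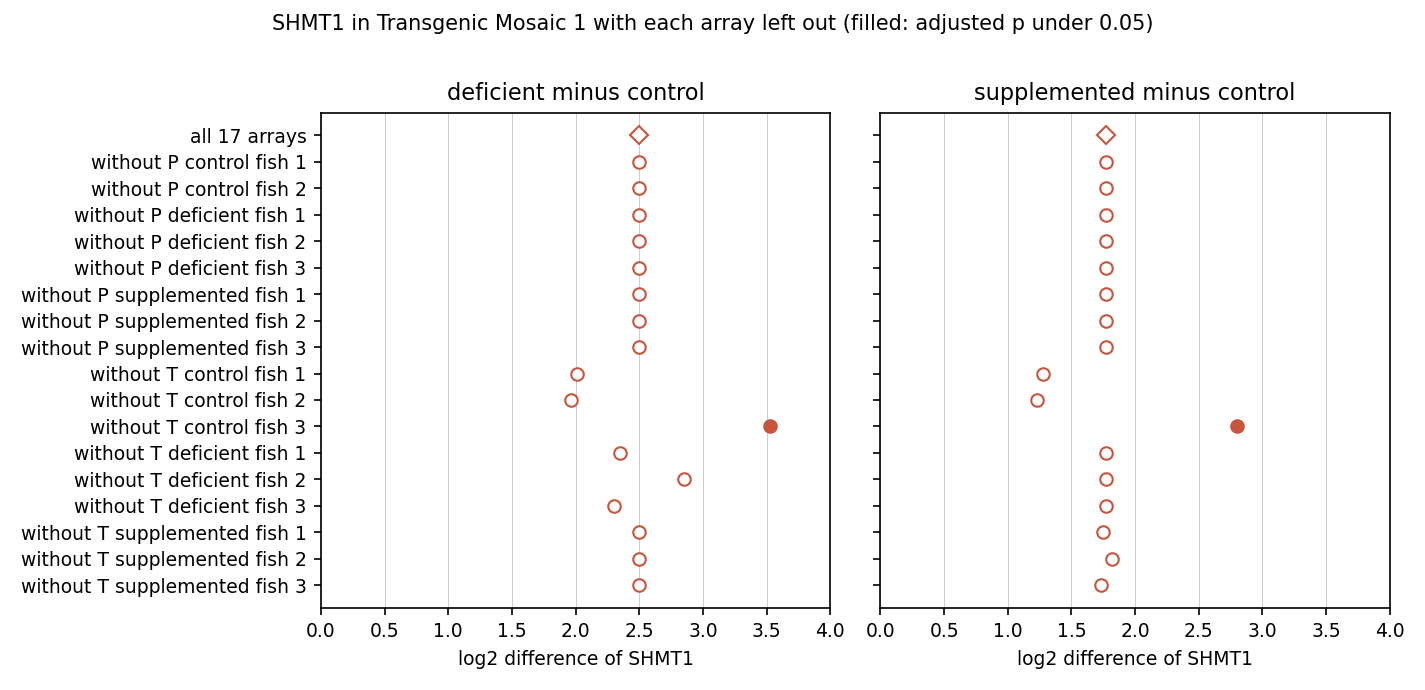
Log2 difference of SHMT1 between deficient and control (left) and supplemented and control (right) Transgenic Mosaic 1 fish, with all 17 arrays (diamond) and with each array left out (circles). Filled symbols passed an adjusted p of 0.05; the difference stayed between 1.96 and 3.53 and between 1.23 and 2.8, and passed without Transgenic Mosaic 1 control fish 3 alone.

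Pargana fish on the deficient diet differed from control in SHMT1 by -0.71 (SE 0.67, limma adjusted p = 0.912), and on the supplemented diet by -0.37 (SE 0.67). All 3 deficient Pargana fish lay below both controls, as they did for 10.9% of genes. Without Pargana control fish 1 these differences were -0.34 and 0.00, and without control fish 2 they were -1.07 and -0.73. The interaction of population and diet, the test of whether the diet differences of the populations differ, gave an unadjusted p of 0.0107 and a limma adjusted p of 0.707, with 0.0383% of genes passing. Without Transgenic Mosaic 1 control fish 3 the adjusted p was 0.00128. Without each of the other 16 arrays in turn it was 0.388 or more.

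MMAB, the B12 adenosyltransferase, was higher in Transgenic Mosaic 1 on every diet, as must be where the populations do not overlap. Pargana fish were at 7.96 and 7.25 on the control, 7.68, 7.51 and 7.61 on the deficient, and 7.52, 7.37 and 7.54 on the supplemented diet. The 2 controls were the highest and the lowest of these fish.

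MMAB in Transgenic Mosaic 1 was at 9.44, 9.32 and 10.55 on the control, 10.55, 9.70 and 9.97 on the deficient, and 9.32, 9.78 and 10.57 on the supplemented diet. The lowest of these lay 1.36 units above the highest Pargana fish, and 0.984% of all genes had no overlap in this direction. Each diet group contained 1 fish at 10.55 to 10.57, and the other 6 fish were between 9.32 and 9.97. The mean difference was 2.35 (SE 0.21), a 5.11-fold difference, and was 2.17, 2.48 and 2.41 on the control, deficient and supplemented diets. The diet groups of a population overlapped, and the difference between diets was between -0.19 and 0.31 in all 6 comparisons (SE 0.35 to 0.39). The 95% intervals of these 6 differences ran from -0.96 at the lowest to 1.05 at the highest.

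**Figure D3:**
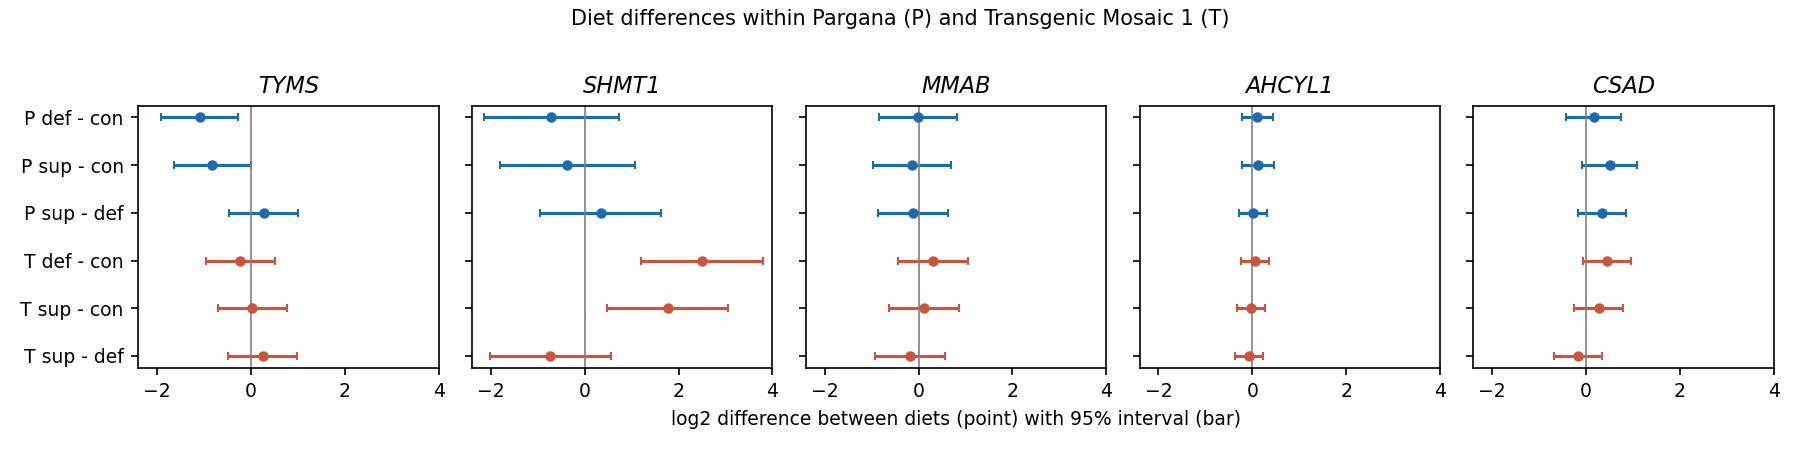
Log2 difference between diets (points) with its 95% interval (bars) for the 5 genes, in Pargana (P) and Transgenic Mosaic 1 (T); con, def and sup are the control, deficient and supplemented diets. The intervals of MMAB, AHCYL1 and CSAD include 0 in all 6 comparisons, and none of the differences passed an adjusted p of 0.05.

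AHCYL1 differed least between the populations. Pargana fish had 10.78 and 11.12 on the control, 10.91, 11.12 and 11.12 on the deficient, and 10.83, 11.16 and 11.23 on the supplemented diet. Transgenic Mosaic 1 fish had 11.48, 11.22 and 11.29 on the control, 11.33, 11.53 and 11.28 on the deficient, and 11.44, 11.31 and 11.17 on the supplemented diet. The populations overlapped where Pargana supplemented fish 3 (11.23) lay above Transgenic Mosaic 1 control fish 2 (11.22) and supplemented fish 3 (11.17), and the other 7 Transgenic Mosaic 1 fish were above every Pargana fish. The share of all genes with as many fish so placed was not counted. The mean difference of AHCYL1 was 0.32 (SE 0.08), a 1.25-fold difference. Its diet differences were between -0.07 and 0.12, and their 95% intervals lay within -0.37 and 0.46.

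CSAD, the taurine pathway decarboxylase, overlapped between the populations. It lay between 19.5% and 32.7% of the way up the ranked genes of the arrays, also toward the dim end, where small differences are less certain. Its values in Pargana were 7.05 and 6.33 on the control, 6.77, 7.06 and 6.71 on the deficient, and 7.06, 7.36 and 7.15 on the supplemented diet. Its values in Transgenic Mosaic 1 were 7.24, 6.99 and 7.30 on the control, 8.05, 7.03 and 7.78 on the deficient, and 7.22, 7.66 and 7.46 on the supplemented diet. Of the 9 Transgenic Mosaic 1 fish 4 lay above every Pargana fish, and the share of all genes with as many was not counted. The mean difference was 0.50 (SE 0.14), and it was 0.49, 0.77 and 0.25 on the control, deficient and supplemented diets. It was past the threshold in 14 of 25 alternatives, with an adjusted p of up to 0.115 (without Pargana control fish 2), and without that fish the control diet value was 0.13.

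With all arrays the mean CSAD value was lowest on the control diet in both populations, without passing. In Pargana this rested on control fish 2, without which deficient fish differed from control by -0.20 and supplemented fish by 0.14. Supplemented Pargana fish differed by 0.50 (SE 0.27, limma adjusted p = 0.920). All 3 lay above both controls, the lowest by 7.06 against 7.05, as they did for 8.72% of genes. Deficient Transgenic Mosaic 1 fish differed by 0.45 (SE 0.24, limma adjusted p = 0.999). Averaged over both populations the supplemented diet differed from control by 0.39 (SE 0.18), with a limma adjusted p of 0.930, and the deficient diet by 0.30 (SE 0.18), with a limma adjusted p of 0.757. Without Pargana control fish 2 these averages were 0.21 and 0.12. For these averages 0.0447% and 0.032% of genes passed.

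Over the 5 genes and 9 diet comparisons, 0 of 45 tests passed in limma with all arrays, and 4 had an unadjusted p under 0.05, as had 3.34% to 7.05% of all genes in a diet comparison. They were TYMS between deficient and control in Pargana and in the average, and SHMT1 between each changed diet and control in Transgenic Mosaic 1. Of all genes 0.0% passed between supplemented and deficient fish in Pargana, 0.00639% in Transgenic Mosaic 1 and 0.0% in the average. Averaged over populations, TYMS differed from control by -0.66 (SE 0.26, limma adjusted p = 0.687; -0.38 without Pargana control fish 1) on the deficient diet and SHMT1 by 0.90 (SE 0.45, limma adjusted p = 0.733). Between the deficient and supplemented diets, on which selenium differs most, the averaged differences of the 5 genes were between -0.20 and 0.26 (SE 0.10 to 0.43). The 95% interval of SHMT1 ran from -1.11 to 0.72. Its average joined 0.34 (SE 0.60) in Pargana and -0.73 (SE 0.60) in Transgenic Mosaic 1. CSAD (0.34 and -0.17) and AHCYL1 (0.02 and -0.07) also had opposite signs, and TYMS and MMAB had the same sign in both populations.

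The rest of the pathways was read from 5 lists, which hold 120 symbols, of which 77 were matched. Apart from the members they gave 68 measured genes. Between the populations 8 of the 68 passed (11.8%), 6 higher and 2 lower in Transgenic Mosaic 1. The share among all genes was 13.3%. The members, chosen because they passed, are left out of the list count, which lowers its share. The shares therefore cannot show whether these pathways stood out by their number of calls. The median difference was -0.01 in the lists and -0.01 over all genes. Between diets 0 of the 68 passed in limma in any of the 9 comparisons, with 33 of the 612 unadjusted p-values under 0.05, and 0 passed in the interaction, with 1 such p-value. Of all genes 3.34% to 7.05% had such a p-value in a diet comparison and 5.63% in the interaction.

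**Figure D4:**
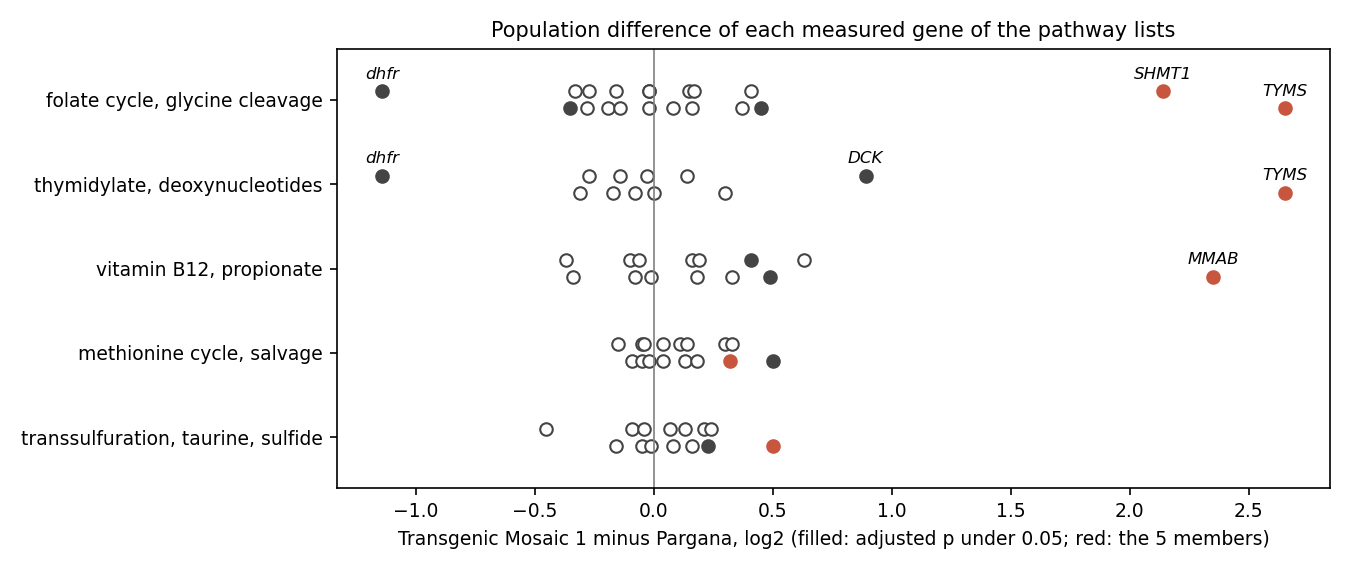
Difference between Transgenic Mosaic 1 and Pargana (horizontal axis, log2 units) of each measured gene of the 5 pathway lists; TYMS, dhfr and MTRR stand in 2 lists each. Red points are members, filled points passed an adjusted p of 0.05, and dhfr at -1.14 lies on the opposite side of 0 from TYMS at 2.65 and SHMT1 at 2.14.

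In the folate cycle and glycine cleavage list 3 of 18 genes passed beside the members. Transgenic Mosaic 1 fish had less dhfr, at a median of 8.13 (7.41 to 8.39) over 9 fish against 9.22 (8.44 to 9.54) over the 8 Pargana fish. The populations did not overlap, and every Transgenic Mosaic 1 fish was below every Pargana fish for 0.952% of genes. The difference was -1.14 (SE 0.18, limma adjusted p = 0.00105), and was -0.89, -1.09 and -1.43 on the control, deficient and supplemented diets. The gene mthfsd, which resembles the synthetase of methenyl folate, was 0.45 higher (SE 0.11, limma adjusted p = 0.017), and lost the call without Pargana control fish 1 (limma adjusted p = 0.052). The other 15 did not pass, among them both features named MTHFD1 (-0.02 and -0.33) and the cytosolic purine enzyme ATIC (0.41).

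In the thymidylate and deoxynucleotide list, of 11 genes besides TYMS, DCK was higher in Transgenic Mosaic 1 and dhfr, counted above, lower. DCK, deoxycytidine kinase of nucleoside salvage, had a median of 6.34 (5.84 to 7.27) in Pargana and 7.35 (6.91 to 8.11) in Transgenic Mosaic 1, a difference of 0.89 (SE 0.17, limma adjusted p = 0.00422). Pargana control fish 1, at 7.27, was the 1 Pargana fish inside the range of Transgenic Mosaic 1. The supplemented Pargana fish were at 6.11, 5.84 and 6.14 and the controls at 7.27 and 6.89. Averaged over populations, supplemented fish differed from control by -0.71, without passing (limma adjusted p = 0.448). RRM1, the large subunit of ribonucleotide reductase, differed by 0.14 and DTYMK, which phosphorylates dTMP, by -0.17, without passing. DHODH, which acts in pyrimidine synthesis, had the smallest unadjusted p of this list between diets (0.00205, limma adjusted p = 0.457), at 0.52 higher in supplemented than in deficient Pargana fish.

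In the vitamin B12 and propionate list 2 of 13 genes passed beside MMAB. MMUT, the mutase that uses the product of MMAB, was higher in Transgenic Mosaic 1, with a median of 12.20 (12.03 to 12.54) against 11.87 (11.38 to 12.11) in Pargana. The ranges overlapped through Pargana deficient fish 3, at 12.11, and the difference was 0.41 (SE 0.11, limma adjusted p = 0.0223), or 0.38, 0.40 and 0.44 by diet. It lost the call without Pargana control fish 1 (limma adjusted p = 0.0583). The gene amn, whose protein anchors the intestinal B12 receptor in mammals, was 0.49 higher (SE 0.12, limma adjusted p = 0.0175), at values of 3.98 to 5.52 near the lowest of the arrays, and lost the call without Pargana control fish 2 (limma adjusted p = 0.0619). MMAA, which guards the mutase, differed by -0.08, MMADHC by 0.16 and MMACHC by 0.19, and MTRR, which reactivates methionine synthase, by 0.33, without passing.

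In the methionine cycle and salvage list 1 of 15 genes passed beside AHCYL1. ENOPH1, an enzyme of methionine salvage, was higher in Transgenic Mosaic 1 with no overlap, as were 0.984% of all genes. Its median was 10.97 (10.79 to 11.31) against 10.49 (10.33 to 10.72), a difference of 0.50 (SE 0.09, limma adjusted p = 0.00312). The hydrolase AHCY itself differed by -0.05 (SE 0.16), the AHCYL1 relative ahcyl2b by 0.14 (SE 0.08) and the methionine adenosyltransferases MAT2A and MAT1A by -0.04 and -0.05. In the transsulfuration, taurine and sulfide list 1 of 13 genes passed beside CSAD. It was ADO, which makes the taurine precursor hypotaurine from cysteamine, at 0.23 (SE 0.06, limma adjusted p = 0.0258), and it lost the call in 5 of 25 alternatives. The cystathionine synthase gene cbsb differed by -0.16, the 2 features named CTH, for cystathionine lyase, by 0.21 and 0.16, and the taurine transporter SLC6A6 by -0.05.

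**Figure D5:**
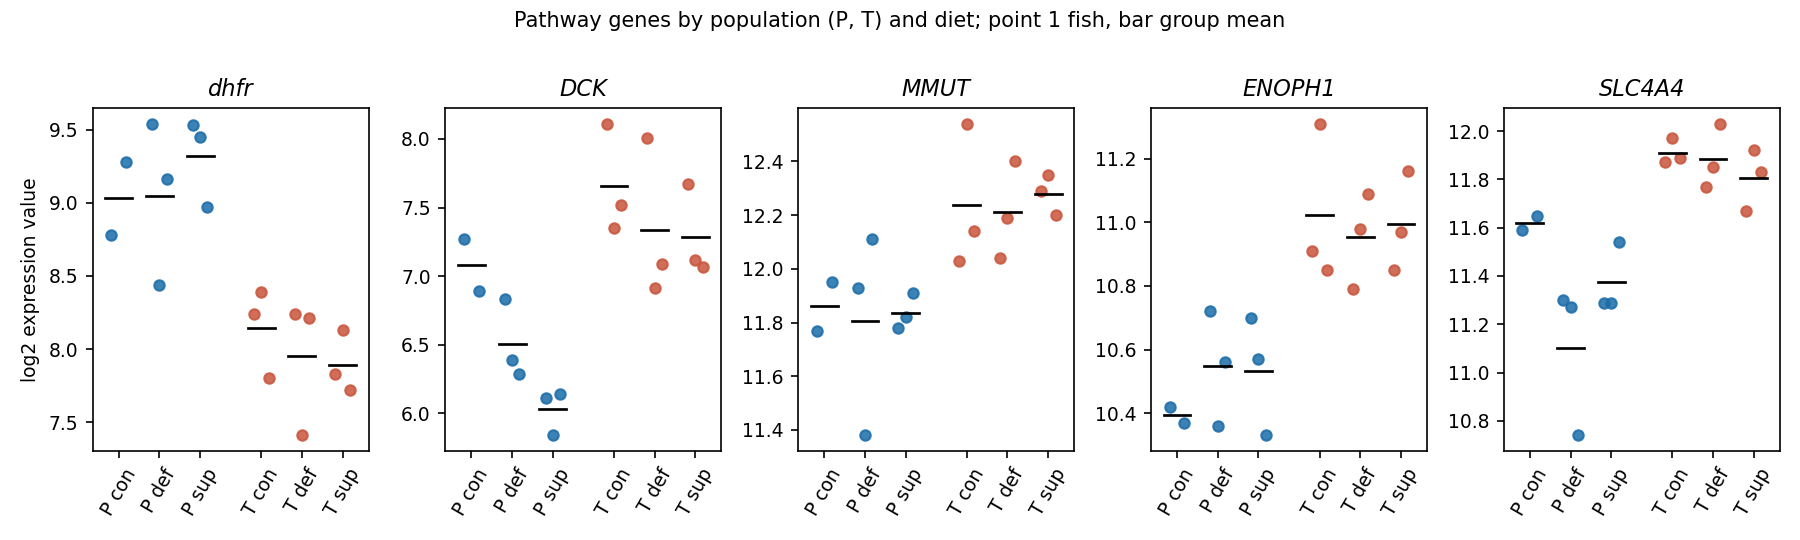
Log2 expression value (vertical axis, a separate scale in each panel) of dhfr, DCK, MMUT, ENOPH1 and SLC4A4 in each fish, by population and diet (con, control; def, deficient; sup, supplemented). Points are fish and bars are group means. In all 9 Transgenic Mosaic 1 fish dhfr lies lower, as did 0.952% of all genes. ENOPH1 and SLC4A4 lie higher in all 9, as did 0.984% of all genes.

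Known protein partners of AHCYL1 in mammals were looked at as well. Of 11 measured genes 2 passed between the populations (18.2%), in opposite directions, against 13.3% of all genes, so these partners did not stand out by their number of calls. SLC4A4, the sodium bicarbonate cotransporter, was higher with no overlap, as were 0.984% of all genes. Its median was 11.87 (11.67 to 12.03) in Transgenic Mosaic 1 against 11.29 (10.74 to 11.65) in Pargana, a difference of 0.50 (SE 0.09, limma adjusted p = 0.00227). The gene fip1l1a, of the mRNA 3' end machinery, was lower, with a difference of -0.90 (SE 0.19, limma adjusted p = 0.00687). Its values, 4.80 to 6.82, lay below the lower quartile of the arrays. The receptor genes ITPR1, ITPR2 and ITPR3 differed by -0.38 (limma adjusted p = 0.0519), -0.10 and -0.02. The 4 measured glutamate decarboxylase features (GAD1, with 2, GAD2 and gad3), which are relatives of CSAD, differed by -0.29 to -0.01. Of these 0 passed in limma and 0 had an unadjusted p under 0.05. GAD2, at -0.08 (SE 0.05), was lower in every Transgenic Mosaic 1 fish than in every Pargana fish, as were 0.952% of all genes.

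Covariation of members among fish of 1 population was computed for 20 pairs, and 0 passed after adjustment. The diets were pooled and group means were not taken off, so differences between diet groups enter these correlations. In the 8 Pargana fish TYMS and SHMT1 had Pearson r = 0.86 (exact permutation p = 0.00491) and Spearman rho = 0.74 (exact permutation p = 0.0458), and r = 0.56 without the 2 fish farthest from the TYMS median. TYMS and AHCYL1 had r = -0.83 (exact permutation p = 0.0109), rho = -0.74 (exact permutation p = 0.0458) and r = -0.78 without those 2. Over the 20 pairs the smallest adjusted exact p was 0.0982 for r and 0.306 for rho, and 2 had an unadjusted exact p under 0.05 for r. In Transgenic Mosaic 1 MMAB and CSAD had r = 0.59 (exact permutation p = 0.0965) and rho = 0.77 (exact permutation p = 0.0214). Pairs with SHMT1 were computed there over 7 fish, without control fish 1 and 2, which form a cluster of their own.

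The Pargana fish with high TYMS and SHMT1 also had high scores of microglia and macrophage markers (8 features). The score was 1.07 and 0.10 in the control fish. It was 0.17, -0.25 and -0.54 in the deficient and 0.31, -0.12 and 0.22 in the supplemented fish. Across the 8 Pargana fish it had r = 0.91 with TYMS (exact permutation p = 0.00179, rho = 0.86 with exact permutation p = 0.0107) and r = 0.95 with SHMT1 (exact permutation p = 0.00246, rho = 0.79 with exact permutation p = 0.0279), or 0.82 and 0.73 without the 2 fish farthest from the median score. With the blood marker score (3 features) they were r = 0.88 (exact permutation p = 0.0034, rho = 0.93 with exact permutation p = 0.00223) and r = 0.89 (exact permutation p = 0.00466, rho = 0.76 with exact permutation p = 0.0368), and 0.75 and 0.61 without the 2 farthest. TYMS is used by dividing cells, and with their marker score it had r = 0.67 in Transgenic Mosaic 1 (exact permutation p = 0.0469, rho = 0.80 with exact permutation p = 0.0138, r = 0.61 without the 2 farthest). In Pargana it had r = 0.71 with that score (exact permutation p = 0.0436, rho = 0.57 with exact permutation p = 0.151), which was 0.19 without the 2 farthest fish. These are 6 of 100 relations of members to 10 marker scores, computed after the data were seen. Of the 100, 0 passed after adjustment (smallest adjusted p = 0.113 for r and 0.223 for rho) and 8 had an unadjusted p under 0.05 for r. The rest of the 8 were negative relations of AHCYL1 in Pargana. They were to the blood score (r = -0.78, exact permutation p = 0.0137) and the microglia score (r = -0.69, exact permutation p = 0.0454). In Transgenic Mosaic 1 the microglia score had r = -0.11 with TYMS and -0.63 with SHMT1 (7 fish). The blood score had r = -0.21 and 0.09 with them there. More cells of a type and more RNA per cell cannot be told apart in such tissue samples. The highest microglia score in Transgenic Mosaic 1 was 0.42, in deficient fish 2, with TYMS at 11.98. This is 1 fish, and TYMS spanned only 0.34 units in that population. The part of these markers in the TYMS difference between Pargana diets was not tested.

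Genes with the most similar pattern over the 17 fish were named by Pearson r, as a description, since the population difference alone makes many genes correlate. For TYMS they were CLIC3 (0.928), QARS1 (0.925) and aldh9a1b (0.920). For SHMT1 they were MLX (0.912), PPP1R42 (0.896) and trim35-31 (0.886). For MMAB they were STX3 (0.936), brms1la (0.934) and CRYM, which binds thyroid hormone (0.931). For AHCYL1 they were CILP2 (0.866), adora3a.1 (0.858) and SLC25A47 (0.857), and for CSAD MGST2, a glutathione transferase (0.882), SUZ12 (0.860) and PRAF2 (0.843). With the group means taken off, the most similar gene was COLEC11 for TYMS (0.916), ATP1B1 for SHMT1 (0.876), phc1 for MMAB (0.899), mfn1b for AHCYL1 (0.906) and SIX6 for CSAD (0.886).

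The 5 members lie on 5 different chromosomes of the GRCz12tu assembly. Of the 30 nearest measured genes, 3 on each side of each member, 5 passed between the populations, 4 higher and 1 lower, against 13.3% of all genes. The 6 neighbours of MMAB differed by -0.18 to 0.22, and 0 passed in limma or had an unadjusted p under 0.05, with MVK, of the mevalonate pathway, next to it at -0.03. Near SHMT1, TOP3A, a topoisomerase, lay 2 genes away and was higher by 0.57 (limma adjusted p = 0.000997). PDAP1, next to SHMT1 on the other side, differed by 0.21 (limma adjusted p = 0.0636). None of the 6 neighbours of SHMT1 had Transgenic Mosaic 1 control fish 1 and 2 below the other 7 by more than 0.01 units. Near TYMS, ppp1r15a (0.26) and ACO1, the cytosolic aconitase (0.61), were higher and SEPSECS, of selenocysteine synthesis, was lower (-0.48). These lay 2, 4 and 5 genes away. The 3 genes on the other side, 8 to 11 genes away, differed by -0.05 to 0.06. Near AHCYL1, NGRN lay 2 genes away and was higher by 0.28 (limma adjusted p = 0.0395). Of the 6 neighbours of CSAD 0 passed in limma or had an unadjusted p under 0.05.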

How the data were processed

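Total RNA of single midbrains was made into double-stranded cDNA with random primers, labelled with Cy3 and hybridised to NimbleGen arrays, per the labels' protocols. The authors deposited RMA values on the log2 scale, 1 per Ensembl gene, made with the Zv9 build, per the submitters' processing notes. They were used unchanged. RMA normalizes arrays to each other, so differences are relative to the other genes of an array. Depth has no meaning for arrays, and their number limits the precision. The table held 15649 features, of which 1 names no gene. The labels give no slide or scan, so batches could not be looked for.

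Limma 3.58.1 (R 4.3.3) was fitted with a mean for each of 6 groups on all 17 arrays, with 11 residual and 2.84 prior degrees of freedom, Benjamini-Hochberg adjustment over 15648 genes, two-sided tests and a threshold of 0.05. Intervals are 95% and come from the same fit. Correlations of members with each other and with marker scores were tested by exact permutation over the pooled diets of a population, without taking off group means. Permutation tests used scipy 1.17.1 and tables pandas 2.3.3.

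The members and lists were chosen with earlier results of these data known. Named genes are the members, list genes past the threshold or of largest difference, the 3 most similar genes and 3 neighbours on each side. Some further list genes are given for their place in the pathway and were chosen after their values were seen. Symbols were matched to features directly or by RefSeq synonym, and 2 aliases that name other genes were dropped. SHMT1 pairs in Transgenic Mosaic 1 were planned over 9 fish and computed over 7. The test was checked on simulated data of 15648 genes, of which 200 were changed, each gene with the same spread in all groups. For supplemented against control in Pargana, 7.46% of changes of 0.5 units and 58.2% of changes of 1 unit passed there. For deficient against control in Transgenic Mosaic 1 these were 10.4% and 59.7%. Such shares may be lower in the real data, where fewer genes passed between diets and spreads differed between groups. Small diet differences within a population would therefore mostly not have passed. For 1 gene of the folate list, which is in the counts, values are not reported here.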

Additional observations from a re-analysis of the deposited data

Results flagged for a closer look

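The diet response of SHMT1 differed between the populations at an unadjusted p of 0.0107 in limma's interaction test, which did not pass when adjusted over all genes (0.707). In Transgenic Mosaic 1 the mean was 2.50 and 1.77 units above control on the deficient and supplemented diets, and in Pargana it was at -0.71 and -0.37 from control, or at -0.34 and 0.00 without Pargana control fish 1 (unadjusted p = 0.057). Transgenic Mosaic 1 control fish 3, at 8.95 against 5.92 and 5.81 in the other controls, is the 1 array without which the adjusted p passed.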

How the results depend on the processing

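The limma differences and counts of the members and lists were computed again under 24 or 25 alternatives, 17 of which leave out 1 array. Covariation, marker relations, most similar genes and neighbours were not computed under these. The population difference of TYMS, SHMT1 and MMAB passed in 25 of 25 and that of AHCYL1 in 24 (it was 0.26 without Pargana control fish 1). That of CSAD passed in 14, the other 11 being single omissions. The members were chosen on this difference in the same arrays, so counts of their passes between populations only describe it and lend it no support. With all other settings than the omissions, no member passed between diets. Without Transgenic Mosaic 1 control fish 3, SHMT1 passed in 2 comparisons within that population, in 1 averaged over populations (1.41, adjusted p = 0.0214) and in the interaction, so the counts of members past the threshold ran from 0 to 2, 0 to 1 and 0 to 1, and for the Pargana diets from 0 to 0. Members past the threshold between populations numbered 4 to 5 with single omissions, and pathway list genes 5 (without Pargana control fish 1) to 10, against 8 with all arrays.

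Counts over all genes in any of the 3 diet comparisons were 7 in Pargana, 13 in Transgenic Mosaic 1 and 8 averaged over populations. With single omissions they ran from 5 to 232, 8 to 28 and 7 to 123, and for the interaction, with 6, from 5 to 87. The highest counts in Pargana, of the averages and of the interaction came without Pargana control fish 2. Without Pargana supplemented fish 2 these 3 counts were 49, 15 and 13, and without Pargana deficient fish 2 they were 15, 16 and 11. Without Pargana deficient fish 3 and Transgenic Mosaic 1 control fish 3 the Pargana count was 11 and 14. Without Transgenic Mosaic 1 deficient fish 2 the counts in that population, of the averages and of the interaction were 28, 14 and 11, and without its supplemented fish 1 the first was 8. Without the lowest quartile of genes the Pargana count was 4 and that of the averages 4. With array weights the Transgenic Mosaic 1 count was 34. With the arrays of 1 population alone the counts were 2 in Pargana and 5 in Transgenic Mosaic 1, and with population plus diet and no interaction the averages gave 0. The count between populations ran from 1590 to 2136 with single omissions. The cause of these changes was not tested. A lone fish left in the Pargana control group was assumed to vary like the other groups. No paired analysis was made, because every array came from its own fish and the labels give no pairing of fish.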
